A study of Mus musculus with 12 samples.

Results

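Leukocyte marker genes were followed across the 4 groups of a mouse prostate expression series. The 42 genes named for this purpose mark all leukocytes, T cells, B cells, antigen-presenting cells, myeloid cells, cytotoxic lymphocytes and mast cells. Each was read from the brightest probe set annotated to that symbol alone, and 40 of the 42 had such a probe set, out of 18194 genes in all. Lck and Trac, both T cell genes, were not analysed here. The rule picks genes by symbol and uses no measured difference, but the genes were named with earlier results of these arrays known.

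Total RNA of prostate lobes was hybridised to Affymetrix arrays, on which a set of short probes reads each transcript. The 4 groups, each of 3 arrays, were wild-type ventral prostate, Med1 knockout ventral prostate, wild-type lateral prostate and Med1 knockout lateral prostate, all from mice 16 weeks old. Med1 belongs to Mediator, a large complex through which transcription factors reach RNA polymerase II. The sources used here do not give the strain, the deleted part of Med1 or any promoter or Cre line that limits the deletion to one cell type. Nor do the labels tie each array to an animal of its own. The p-values thus rest on the spread among these arrays alone, and that spread may be technical.

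Leukocytes are a minor part of a healthy prostate, where macrophages lie in the stroma and T cells lie within and beside the epithelium. Macrophages and dendritic cells take up antigen and show its fragments to CD4 T cells on MHC class II molecules. CD8 T cells and natural killer cells kill target cells with granzymes. In RNA of a whole lobe, fewer cells of a type and less RNA per cell cannot be told apart.

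All 4 MHC class II genes read lower in the labelled knockout lateral arrays, as described further on, and promoters of such genes are known for a shared control module, which is why their sequences are shown. That module holds an X box, bound by the RFX complex, and a Y box, bound by NF-Y, and the coactivator CIITA acts through both. Of the 40 measured members, 27 had an entry in the RefSeq promoter table (GRCm38.p6), and among the class II genes H2-Aa and H2-Eb1 did. The stretches below are the 130 bases before each gene's start, 5′ to 3′ on the gene's strand, with the X core and then the Y core in capitals. H2-Aa lies on the minus strand at chr17:34287824-34287953 and H2-Eb1 on the plus strand at chr17:34305737-34305866.
H2-Aa: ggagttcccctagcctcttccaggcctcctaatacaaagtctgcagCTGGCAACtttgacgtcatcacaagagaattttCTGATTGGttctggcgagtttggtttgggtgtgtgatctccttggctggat
H2-Eb1: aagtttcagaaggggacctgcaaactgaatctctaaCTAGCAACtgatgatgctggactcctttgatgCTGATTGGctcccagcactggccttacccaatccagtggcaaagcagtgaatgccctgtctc
The Y core was searched as CTGATTGG and the X core as CTNGCAAC, on both strands of the 250 bases before each start, and both patterns were chosen with these promoters in view. In H2-Aa the X core lay 84 to 77 bases and the Y core 51 to 44 bases before the start, with 25 bases between them. In H2-Eb1 they lay at 94 to 87 and at 62 to 55 bases, with 24 bases between them. The cores did not overlap in either promoter. Over all 32851 promoters in the table, 3.83% held the Y core, 2.84% the X core and 0.155% both. A match describes the letters and does not show that a factor binds there.

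**Figure D1:**
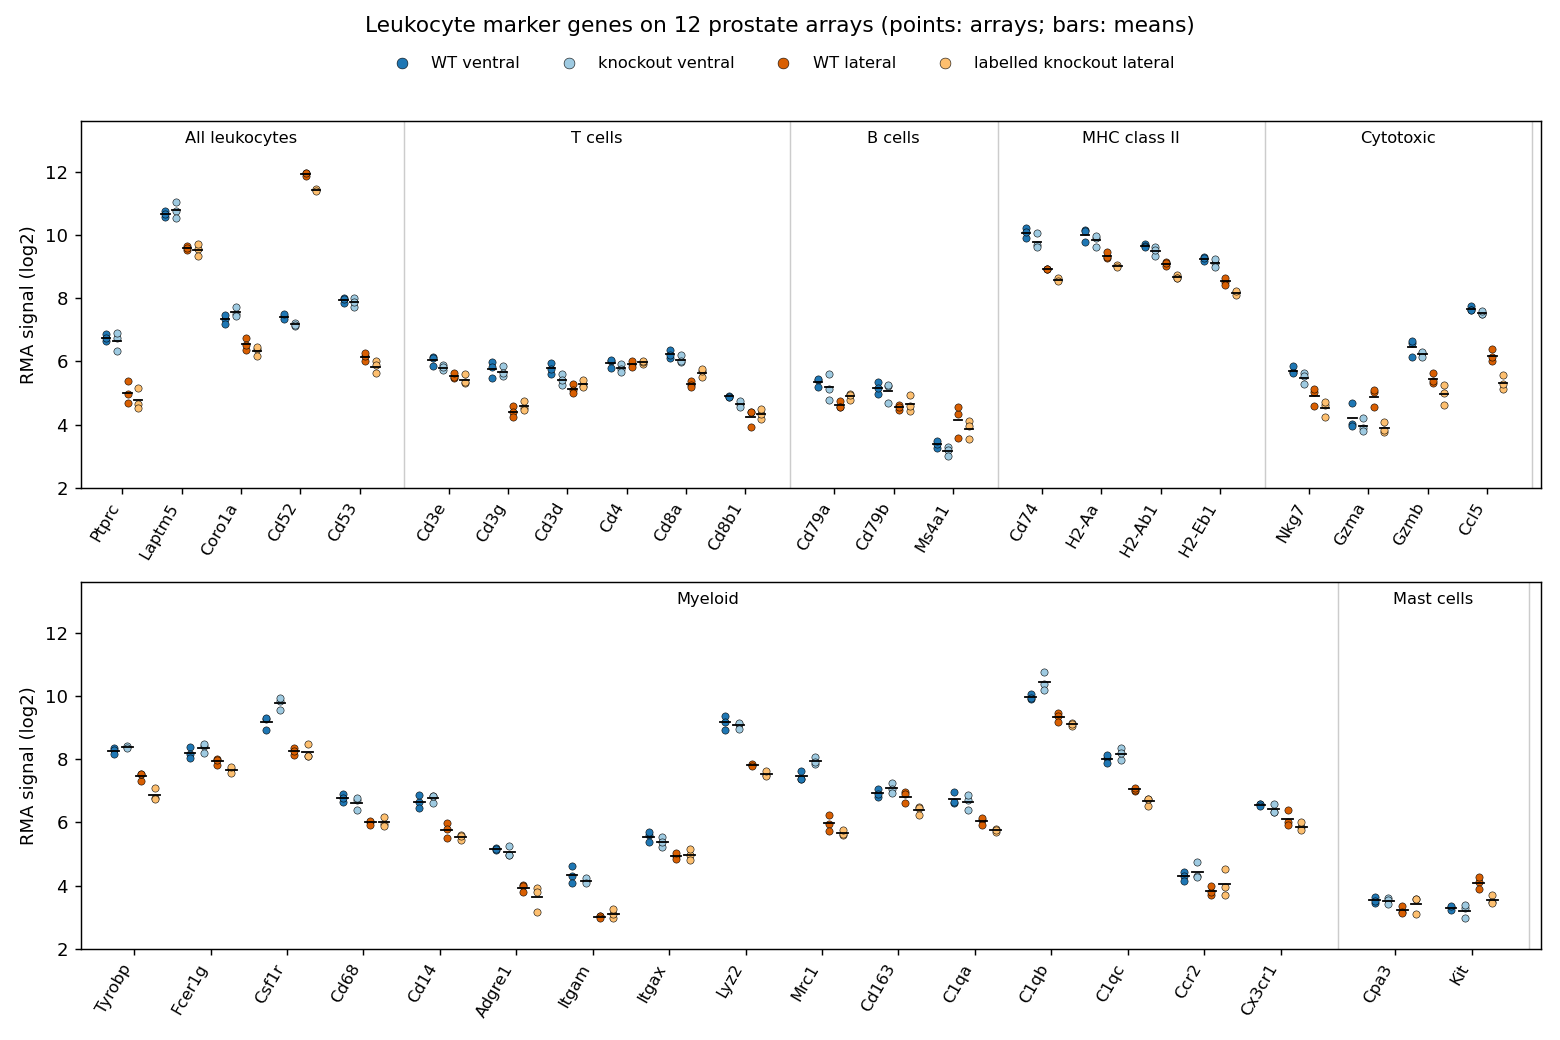
RMA signal (log2) of the 40 measured leukocyte marker genes, by lineage, in wild-type and knockout ventral and in wild-type and labelled knockout lateral prostate. Points are arrays, 3 per group, and bars are group means. Most genes read lower in the lateral lobe, while Cd52 read 11.9 to 12.0 in wild-type lateral and 7.33 to 7.48 in wild-type ventral arrays.

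Med1 itself, read from its brightest probe set alone, was lower in the ventral knockout and not clearly so in the lateral one. It read 9.48, 9.52 and 9.29 in wild-type and 8.90, 8.99 and 8.68 in knockout ventral arrays, a difference of -0.57 ± 0.13 log2 units (moderated SE, n = 3 per group; limma adjusted p = 0.012). In the lateral lobe it read 8.58, 8.74 and 8.23 against 8.40, 8.34 and 8.44, so the groups overlapped (-0.13 ± 0.13; limma adjusted p = 0.62). The lateral knockout arrays are therefore called labelled knockout throughout, a name that does not rest on a test between the lobes. The sources used here do not say whether the probes lie in the deleted part.

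Array medians were 6.39 to 6.43 in ventral and 6.05 to 6.06 in lateral arrays, and sorted values differed by a median of 0.0493 among ventral, 0.0786 among lateral and 0.388 among all arrays. No source states separate normalization of the lobes, but with such values it cannot be told apart from a difference between lobes. Genotypes were compared within a lobe. Signal was called low in a group whose mean was below the lower quartile over all probe sets of its lobe, 4.73 in ventral and 4.52 in lateral arrays. By that mark 6 and 7 members were low in wild-type and knockout ventral arrays and 8 in each lateral group. Ms4a1, Itgam, Ccr2, Cpa3 and Kit were low in all 4 groups. The mean of 6 seminal vesicle genes stood apart in 2 arrays, at 5.52 in wild-type ventral replicate 3 against 3.81 and 3.89, and at 7.73 in labelled knockout lateral replicate 3 against 9.26 and 9.09.

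In the ventral lobe few leukocyte genes passed. The 3 that did are macrophage genes and rose in the knockout, and 0 passed as lower. They were Csf1r, Mrc1 and C1qb, which rose by 1.53-fold, 1.39-fold and 1.39-fold. Over all genes 5.88% passed as higher and 3.20% as lower, against 7.5% and 0% of the members, so the share that rose was near that of all genes. At an unadjusted p under 0.05, 7 members (17.5%) passed in either direction, a smaller share than the 24.7% of all genes. The median difference of the members was -0.12 log2 units, that of all genes -0.020, and 29 of the 40 lay below 0, as did 54.1% of all genes. All knockout arrays lay above all wild-type arrays in 4 members (10%) and below them in 5 (12.5%), against 14.9% and 14.6% of all genes.

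Csf1r encodes the receptor for the growth factor on which macrophages depend. It read 9.26, 8.92 and 9.30 in wild-type and 9.85, 9.54 and 9.92 in knockout ventral arrays, so all 3 knockout arrays lay above all 3 wild-type arrays. The difference was 0.61 ± 0.14 (limma adjusted p = 0.013). Its 2 dimmer probe sets gave 0.27 and 0.061 and did not pass in a fit over all probe sets.

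Mrc1 encodes the macrophage mannose receptor CD206. It read 7.38, 7.39 and 7.62 in wild-type and 8.07, 7.84 and 7.91 in knockout ventral arrays, and the groups did not overlap (0.48 ± 0.12; limma adjusted p = 0.028). C1qb encodes a chain of C1q, the first complement component, which tissue macrophages make. It read 10.07, 9.91 and 9.92 against 10.36, 10.20 and 10.76, again without overlap and with the widest spread in the knockout (0.48 ± 0.13; limma adjusted p = 0.031). Its brightest probe set is of a kind that can share probes with similar transcripts, and its other 2 gave 0.23 and 0.13 and did not pass.

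These 3 were the only ones of the 16 myeloid genes to pass. Of the others, 6 lay above 0 and 7 below, and the median of the 16 was 0.11. The other chains of C1q differed by -0.10 (C1qa) and 0.16 (C1qc), and Adgre1, which encodes the macrophage antigen F4/80, by -0.086. Ptprc, which encodes the leukocyte antigen CD45, differed by -0.095 ± 0.19 (limma adjusted p = 0.80). The 3 calls were not firm. With wild-type replicate 2 or knockout replicate 3 left out, 0 members passed, and with wild-type replicate 1 left out only Csf1r did. Without knockout replicate 1, Csf1r passed as higher and Cd3d and Cd74 as lower. Cd52 passed as lower after median centring, with the dimmest 40% of genes removed, with another variance model and, together with H2-Ab1, with the mean of a gene's probe sets.

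Members of the T cell, B cell, class II and cytotoxic lists lay below 0 in the ventral lobe without passing. All 6 T cell genes, all 3 B cell genes, all 4 class II genes and all 4 cytotoxic genes were below 0, with medians of -0.20, -0.17, -0.18 and -0.23, and 0 of these 17 passed. Over all genes 54.1% lay below 0, with a median of -0.020, or 0.015 without the dimmest 40% of genes. Of further genes, 12 of 13 T cell, 7 of 10 B and plasma cell and 7 of 8 natural killer and cytotoxic genes lay below 0. So did 7 of 13 genes of antigen presentation and all 7 dendritic cell genes. The part of dim signal in these signs was not tested. Cd3d, a chain of the T cell receptor complex, had the largest difference of the T cell genes. It read 5.96, 5.61 and 5.77 in wild-type and 5.59, 5.24 and 5.40 in knockout ventral arrays, and the groups did not overlap, though they nearly touched (-0.37 ± 0.12; limma adjusted p = 0.070). Cd74, the invariant chain that guides class II molecules, read 10.21, 9.91 and 10.08 against 10.05, 9.69 and 9.61, and the groups overlapped (-0.28 ± 0.11; limma adjusted p = 0.13).

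In the lateral lobe 7 members fell in the labelled knockout and none rose: 2 cytotoxic, 2 class II and 1 myeloid gene, with Cd52 and Kit. Ccl5 was 1.81-fold, Tyrobp 1.51-fold, Cd52 1.42-fold, H2-Ab1 1.34-fold and H2-Eb1 1.28-fold lower, while Gzma fell to low signal and Kit within it. That is 17.5% of the members as lower and 0% as higher, where 3.42% and 1.62% of all genes passed. At an unadjusted p under 0.05, 19 members (47.5%) passed in either direction, against 19.5% of all genes. In 16 of the 40 members (40%) all labelled knockout arrays lay below all wild-type arrays, against 15.7% of all genes, and in 2 all lay above, against 11.2%. The median of the members was -0.25 and that of all genes -0.0025.

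**Figure D2:**
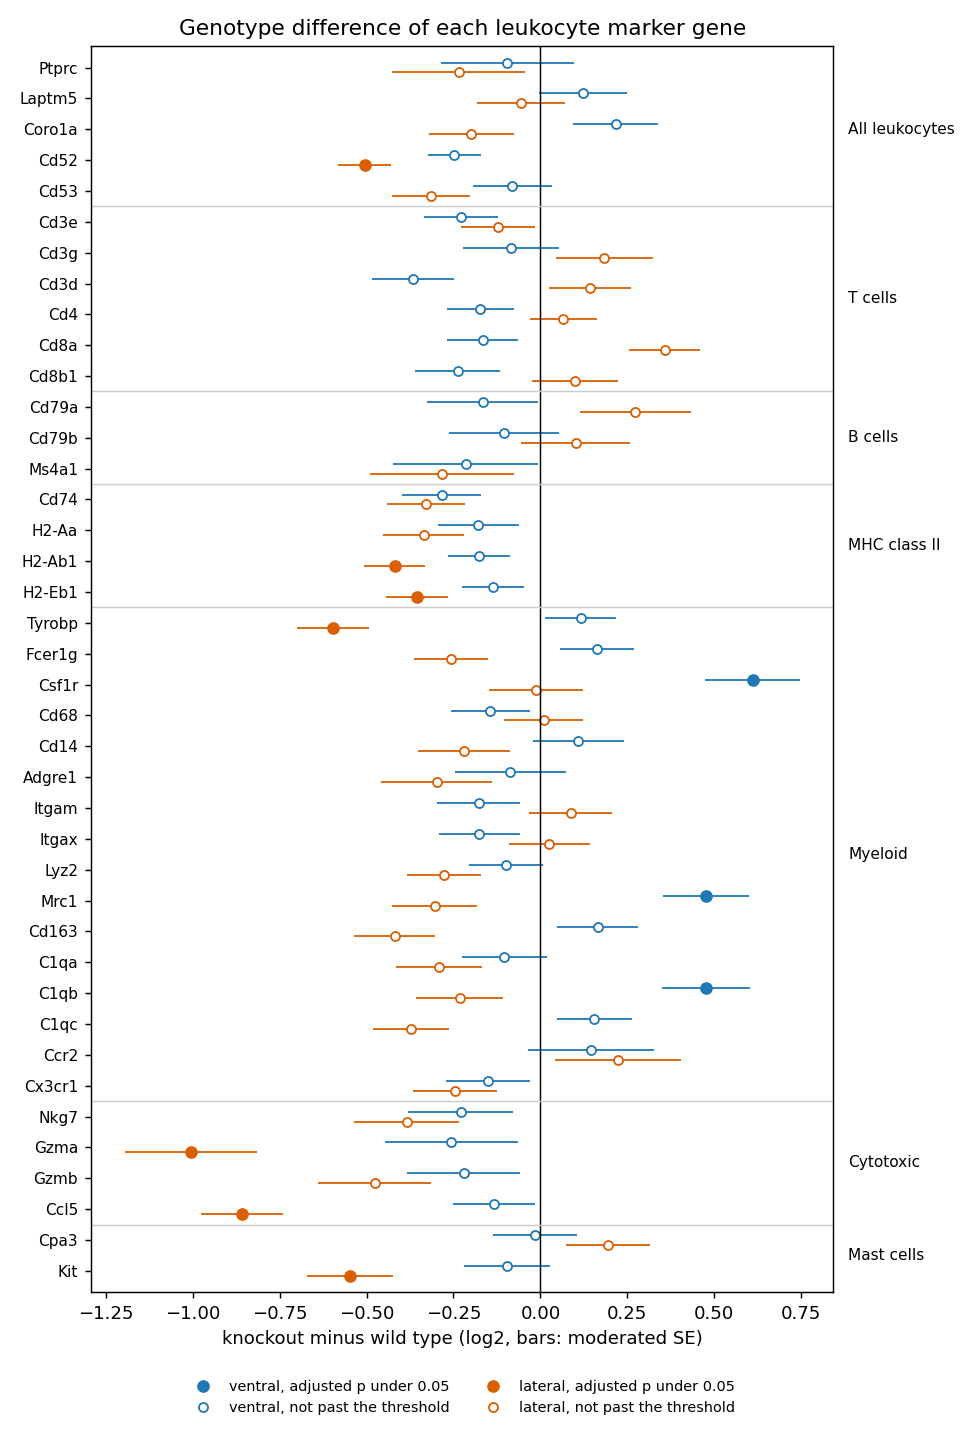
Knockout minus wild type (log2) of each leukocyte marker gene in the ventral lobe (blue) and the lateral lobe (orange), with bars of 1 moderated SE and filled points at a limma adjusted p under 0.05. The 3 filled ventral points (Csf1r, Mrc1, C1qb) lie right of 0 and the 7 filled lateral points lie left of it.

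Ccl5 encodes a chemokine made by activated T cells and natural killer cells. It read 6.39, 6.02 and 6.12 in wild-type and 5.12, 5.27 and 5.55 in labelled knockout lateral arrays, so the groups stood well apart (-0.86 ± 0.12; limma adjusted p = 0.00058). In the ventral lobe it read 7.74, 7.62 and 7.61 against 7.49, 7.49 and 7.60, where the groups did not overlap but the gap was small (-0.13 ± 0.12; limma adjusted p = 0.52).

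Gzma encodes granzyme A, a protease of cytotoxic granules. It read 5.02, 5.09 and 4.54 in wild-type and 3.75, 3.81 and 4.07 in labelled knockout lateral arrays, without overlap (-1.0 ± 0.19; limma adjusted p = 0.0070). The labelled knockout mean was under the mark for low signal, which leaves the size of the difference uncertain. In ventral arrays it read 4.03, 4.69 and 3.94 against 3.90, 3.79 and 4.19, so the groups overlapped at low signal (-0.26 ± 0.19; limma adjusted p = 0.44).

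Gzmb and Nkg7, which encode granzyme B and a granule membrane protein, differed by -0.48 ± 0.16 and -0.38 ± 0.15 in the lateral lobe (limma adjusted p = 0.12 and 0.17). The mean log2 signal of the 4 cytotoxic genes was 5.27 to 5.44 in wild-type and 4.63 to 4.74 in labelled knockout lateral arrays. Of 8 further genes of natural killer and cytotoxic cells, 0 passed in the lateral lobe, with a median of -0.020.

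All 4 class II genes read lower in every labelled knockout lateral array than in every wild-type one, and 2 of them passed. Over all genes 15.7% lay lower without overlap and 3.42% passed as lower. H2-Ab1, the beta chain of the I-A molecule, read 9.0, 9.14 and 9.12 in wild-type and 8.72, 8.64 and 8.63 in labelled knockout lateral arrays (-0.42 ± 0.089; limma adjusted p = 0.013). H2-Eb1, the beta chain of I-E, read 8.51, 8.63 and 8.42 against 8.19, 8.11 and 8.21 (-0.35 ± 0.089; limma adjusted p = 0.035).

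H2-Aa, the alpha chain of I-A, read 9.26, 9.31 and 9.46 in wild-type and 9.01, 9.03 and 8.98 in labelled knockout lateral arrays (-0.34 ± 0.12; limma adjusted p = 0.12). Its dimmer probe sets gave -0.14, -0.45 and -0.10. Of these only the one at -0.45 passed in a fit over all probe sets (limma adjusted p = 0.046). Cd74 read 8.91, 8.92 and 8.90 against 8.57, 8.63 and 8.54 (-0.33 ± 0.11; limma adjusted p = 0.12), with a gap far wider than the spread of either lateral group. All groups share 1 estimate of a gene's spread, and the ventral arrays of Cd74 were more scattered.

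The class II calls were close to the threshold. H2-Eb1 did not pass in a fit over all probe sets (limma adjusted p = 0.058), and H2-Ab1 did not with the mean of its probe sets (-0.30; limma adjusted p = 0.083). The probe set of H2-Ab1 and those of H2-Aa are of kinds that can share probes with related transcripts. Ciita, the coactivator of these promoters, was picked after its values were seen. It read 5.88, 5.63 and 5.68 in wild-type and 5.90, 6.02 and 6.07 in labelled knockout lateral arrays, which lay above rather than below and did not pass (0.27 ± 0.093; limma adjusted p = 0.12). Of 13 companion genes of antigen presentation, 0 passed in the lateral lobe and 1, H2-Ob, was lower in the ventral lobe (-0.49 ± 0.14; limma adjusted p = 0.046). In that lobe 3.20% of all genes passed as lower.

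Tyrobp was the only myeloid gene of the 16 that passed in the lateral lobe. It encodes DAP12, a signalling adaptor of myeloid and natural killer cell receptors. It read 7.32, 7.53 and 7.54 in wild-type and 6.78, 7.07 and 6.73 in labelled knockout lateral arrays, without overlap (-0.60 ± 0.10; limma adjusted p = 0.0032). In ventral arrays it read 8.34, 8.29 and 8.15 against 8.38, 8.40 and 8.35, on the other side of 0 (0.12 ± 0.10; limma adjusted p = 0.53).

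Of the other 15 myeloid genes, 11 lay below 0 in the lateral lobe, as did 9199 of all 18194 genes. In 7 of the 16 the groups did not overlap, all with the labelled knockout lower, against 15.7% of all genes. Cd163, a scavenger receptor of macrophages, read 6.96, 6.61 and 6.89 in wild-type and 6.49, 6.47 and 6.24 in labelled knockout lateral arrays (-0.42 ± 0.12; limma adjusted p = 0.056). C1qc read 6.99, 7.03 and 7.10 against 6.74, 6.52 and 6.74 (-0.37 ± 0.11; limma adjusted p = 0.069). Csf1r, higher in the ventral knockout, read 8.13, 8.34 and 8.26 against 8.11, 8.10 and 8.47 and differed by -0.012 (95% interval -0.30 to 0.28).

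Among the genes of all leukocytes Cd52 alone passed. It read 11.95, 11.87 and 11.97 in wild-type and 11.43, 11.46 and 11.39 in labelled knockout lateral arrays, 2 tight and separate groups (-0.51 ± 0.077; limma adjusted p = 0.0013). In ventral arrays it read 7.43, 7.33 and 7.48 against 7.21, 7.13 and 7.16, also without overlap (-0.25 ± 0.077; limma adjusted p = 0.060). Between the wild-type lobes Cd52 was 4.52 log2 units higher in lateral arrays, where the other 4 genes of this list were lower. Its lateral signal may thus not come from leukocytes alone. The 6 seminal vesicle genes differed by a median of -2.88 in the labelled knockout lateral arrays, and their part in the Cd52 difference was not tested. Laptm5, a lysosomal membrane protein of blood cells, read 9.66, 9.51 and 9.58 against 9.57, 9.70 and 9.32 in lateral arrays and 10.74, 10.56 and 10.67 against 10.74, 10.54 and 11.05 in ventral arrays. Its groups overlapped in both lobes (-0.055 ± 0.13 and 0.12 ± 0.13). Ptprc differed by -0.23 ± 0.19 in the lateral lobe (limma adjusted p = 0.54).

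Kit encodes the receptor for stem cell factor, which mast cells need, and other cells carry it too. It read 4.10, 3.88 and 4.27 in wild-type and 3.70, 3.47 and 3.44 in labelled knockout lateral arrays, without overlap but under the mark for low signal in both groups (-0.55 ± 0.12; limma adjusted p = 0.019). Its other, still dimmer probe set gave -0.70 and passed in a fit over all probe sets (limma adjusted p = 0.016). Cpa3, a mast cell protease, differed by 0.20 ± 0.12 (limma adjusted p = 0.41), and 0 of 7 further mast cell genes passed in either lobe. All 7 of these lay above 0 in the lateral lobe, so Kit alone of the mast cell genes was lower there.

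No T or B cell gene passed in the lateral lobe. Of the 6 T cell genes 5 lay above 0 (median 0.12), as did 2 of the 3 B cell genes (median 0.10). Over all genes 8995 of 18194 lay above 0 in that lobe. Cd3e and Ms4a1 lay below 0. Cd8a, which encodes a chain of the CD8 coreceptor, read 5.39, 5.26 and 5.20 in wild-type and 5.49, 5.68 and 5.75 in labelled knockout lateral arrays. The labelled knockout arrays all lay above (0.36 ± 0.10; limma adjusted p = 0.062). Cd4 read 5.91, 6.01 and 5.82 against 5.92, 5.99 and 6.02, and Cd79a, a chain of the B cell receptor, read 4.75, 4.56 and 4.57 against 4.78, 4.98 and 4.94. Cd4 overlapped between the groups (0.066 ± 0.096), and Cd79a did not overlap but did not pass (0.27 ± 0.16; limma adjusted p = 0.38). Ms4a1, which encodes CD20, was at low signal, with 4.33, 4.56 and 3.57 against 3.54, 4.11 and 3.95.

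The lateral count also depended on single arrays. It was 4 without wild-type replicate 3, without labelled knockout replicate 2 or without labelled knockout replicate 3, and the calls lost each time were H2-Ab1, H2-Eb1 and Kit. Ccl5, Gzma, Tyrobp and Cd52 passed with each of the 12 arrays left out, with adjusted p of at most 0.039. Labelled knockout replicate 3 is the array that stood apart in seminal vesicle genes.

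Stromal and seminal vesicle markers moved in the same arrays. In the ventral knockout 7 of 10 smooth muscle and 6 of 10 fibroblast genes rose. In the lateral labelled knockout 4 of 10 and 5 of 10 fell, as did 4 of 6 seminal vesicle genes. Over all genes 5.88% rose and 3.20% fell in the ventral lobe, and 3.42% fell in the lateral lobe. The mean log2 signal of the smooth muscle genes was 9.66 to 9.94 and 10.3 to 10.5 in wild-type and knockout ventral arrays, and 11.1 to 11.2 and 10.6 to 10.9 in wild-type and labelled knockout lateral arrays. For fibroblast genes the ranges were 8.85 to 9.13, 9.35 to 9.47, 9.07 to 9.14 and 8.60 to 8.79 in the same order, and for seminal vesicle genes 3.81 to 5.52, 4.25 to 4.60, 11.4 to 11.5 and 7.73 to 9.26. In the lateral labelled knockout 3 of 6 nerve and Schwann cell genes and 2 of 8 basal epithelial genes also fell, and in the ventral knockout 2 of 4 adipocyte genes fell and 1 of 3 lymphatic genes rose. Their mean log2 signals were 6.11 to 6.35 against 5.91 to 5.97 (nerve) and 8.16 to 8.28 against 7.87 to 7.95 (basal) in lateral arrays. In ventral arrays they were 5.95 to 6.19 against 5.54 to 5.83 (adipocyte) and 6.23 to 6.27 against 6.28 to 6.52 (lymphatic). Of the 9 luminal epithelial genes 0 passed in either lobe, and of the 8 endothelial genes 0 did. The part of these cells in the leukocyte results was not tested.

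**Figure D3:**
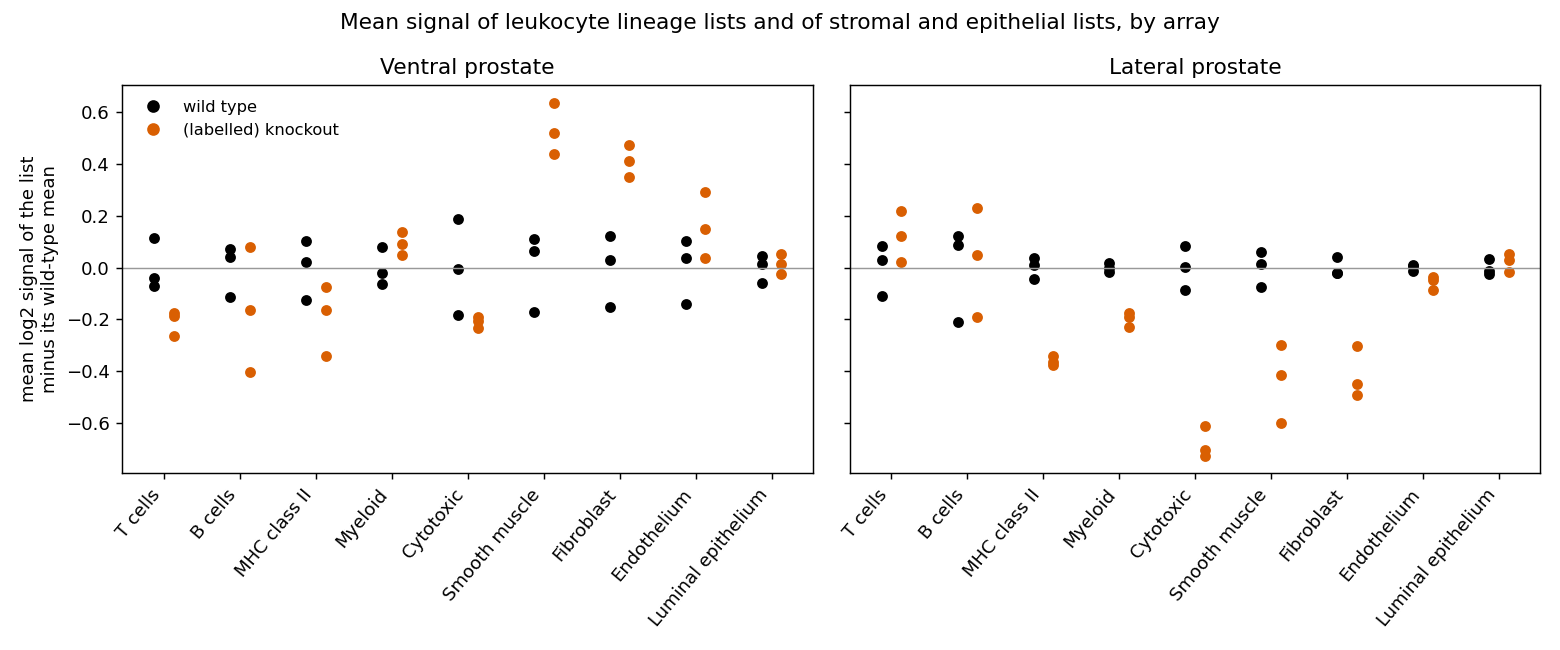
Mean log2 signal of leukocyte lineage lists and of stromal, endothelial and luminal epithelial lists in each array, minus the list's wild-type mean in that lobe. Black points are wild-type and orange points knockout arrays, labelled as such in the lateral lobe, 3 per group. In the lateral lobe the cytotoxic, class II, myeloid, smooth muscle, fibroblast and endothelial means of the labelled knockout lie below 0. The T cell means lie above it but overlap those of the wild type.

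Whether the genotype difference itself changed between lobes was tested as the lateral minus the ventral difference. It passed for 7 members, 1 of them upward and 6 downward (2.5% and 15%, against 2.80% and 6.51% of all genes). The downward ones were Mrc1 (-0.78 ± 0.17; limma adjusted p = 0.012), Ccl5 (-0.72 ± 0.17; 0.015), Tyrobp (-0.71 ± 0.15; 0.0074), C1qb (-0.71 ± 0.18; 0.024), Cd163 (-0.58 ± 0.17; 0.041) and C1qc (-0.53 ± 0.15; 0.048). All but Ccl5 are myeloid genes whose difference lay above 0 in the ventral and below 0 in the lateral lobe. Cd8a went the other way (0.52 ± 0.14; limma adjusted p = 0.037), with 6.36, 6.10 and 6.19 in wild-type and 5.97, 6.19 and 6.0 in knockout ventral arrays. With the mean of its probe sets Cd8a gave 0.19 (limma adjusted p = 0.33), and with the replicate number as a fixed block it did not pass (0.059). Without wild-type ventral replicate 3 the count was 3, and without wild-type lateral replicate 1, 2 or 3 or labelled knockout lateral replicate 2 it was 4. Mrc1, Tyrobp and Ccl5 passed with each of the 12 arrays left out, C1qb in 8 of the 12 fits, Cd8a and Cd163 in 4 each and C1qc in 1.

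No member passed in both lobes separately. The share of all genes that did so was not counted, so nothing about leukocyte genes is drawn from this. Averaged over the lobes, 7 members were lower and none higher (17.5% and 0%, against 2.93% and 2.70% of all genes). They were Cd52 (-0.38), Gzma (-0.63), Ccl5 (-0.50), H2-Ab1 (-0.30), Cd74 (-0.31), H2-Eb1 (-0.24) and Kit (-0.32), with limma adjusted p of 0.00072 to 0.046. These averages use the same arrays as the comparisons within a lobe. With wild-type ventral replicate 1, wild-type lateral replicate 1 or labelled knockout lateral replicate 3 left out, 4 passed.

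Between the wild-type lobes, most of the 40 measured members read lower in lateral than in ventral prostate. As deposited, 34 members were lower and 4 higher (85% and 10%, against 55.8% and 12.3% of all genes). The median was -0.71 log2 units for the members and -0.34 for all genes. Further leukocyte genes had medians of -0.31 (17 of all leukocytes), -0.44 (13 of T cells) and -0.38 (10 of B and plasma cells). Those of antigen presentation, myeloid and natural killer or cytotoxic cells were -0.76, -0.73 and -0.35 (13, 20 and 8 genes). For dendritic cells, granulocytes and mast cells they were -0.052, 0.074 and 0.26 (7, 8 and 7 genes). The 9 luminal epithelial genes, 7 lower and 1 higher, had a median of -0.88. After quantile normalization over all arrays, which brought the median of all genes to 0.049, 24 members were lower and 6 higher, against 25.7% and 31.7% of all genes, with a median of -0.36. Centring each array on its median gave 23 lower and 5 higher, against 28.9% and 30.6% of all genes. As deposited, the groups did not overlap for 34 members that were lower and 3 that were higher, against 59.3% and 14.0% of all genes.

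Ptprc and Cd53, from the list of all leukocytes, were among the members with the widest gap. Ptprc read 6.86, 6.63 and 6.73 in ventral and 5.36, 4.97 and 4.69 in lateral wild-type arrays (-1.73 ± 0.19, and -1.40 after quantile normalization). Cd53, a tetraspanin of leukocytes, read 8.0, 7.85 and 7.98 against 6.0, 6.18 and 6.27 (-1.79 ± 0.11, and -1.37). Mrc1 and Ccl5 differed by -1.49 ± 0.12 and -1.48 ± 0.12, and by -1.09 and -1.07 after quantile normalization. Each of these 4 passed on either scale.

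Cd52 went far in the other direction, at 4.52 ± 0.077 higher in the lateral lobe and 4.91 after quantile normalization. Its protein is a leukocyte surface antigen that is also made by epithelium of the male reproductive tract. Seminal vesicle genes, at a mean of 11.4 to 11.5 in wild-type lateral and 3.81 to 5.52 in wild-type ventral arrays, were high in the same arrays, and their part in the Cd52 signal was not tested. Ms4a1 (0.78 ± 0.21), Kit (0.77 ± 0.12) and Gzma (0.67 ± 0.19) were also higher in the lateral lobe. Gzma was at low signal in the ventral lobe, and Ms4a1 and Kit were in both lobes, which leaves the size of these differences uncertain.

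The gap of the class II genes depended on the scale. H2-Aa, H2-Ab1 and H2-Eb1 were lower by 0.57 to 0.71 as deposited and differed by -0.11, -0.026 and -0.19 after quantile normalization, where none of the 3 passed. After median centring they differed by -0.30, -0.21 and -0.35, and H2-Aa and H2-Eb1 passed as lower. Cd74 passed on all 3 scales (-1.16, -0.60 after quantile normalization and -0.80 after centring). Cd4 and Cd163 did not pass as deposited (-0.039 ± 0.096 and -0.10 ± 0.12) and were higher after quantile normalization (0.30 and 0.31). No source states how the lobes were normalized, and if they were normalized apart, a lobe difference and a difference of scale cannot be told apart.

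**Figure D4:**
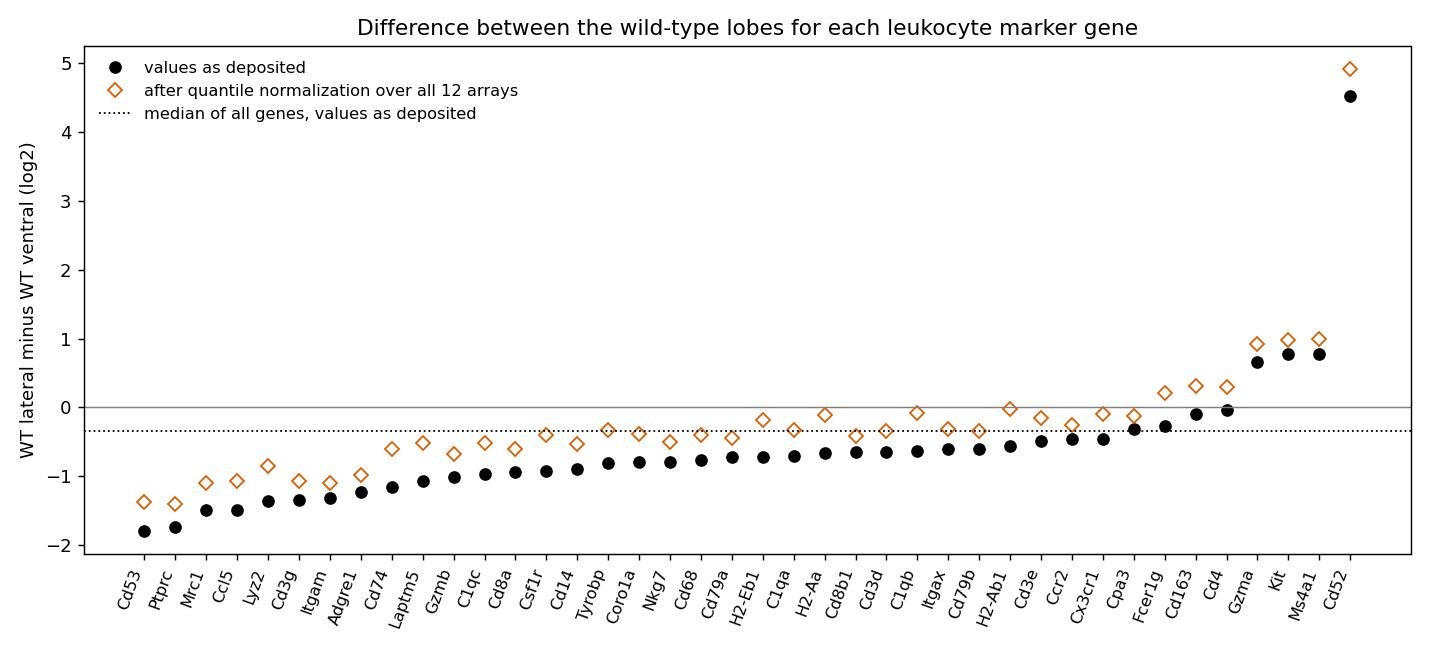
Wild-type lateral minus wild-type ventral signal (log2) of each leukocyte marker gene, as deposited (black) and after quantile normalization over all 12 arrays (open orange). The dotted line is the median of all genes as deposited, -0.34. Most members lie below 0 on both scales, and Cd52 stands at 4.52 and 4.91.

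Between genotypes, further genes of the same cells, not among the 42, gave few calls. Over all genes 5.88% passed as higher and 3.20% as lower in the ventral lobe, and 1.62% and 3.42% in the lateral lobe. Of 17 other genes of all leukocytes, 1 rose in the ventral knockout, Cytip (0.72 ± 0.18; limma adjusted p = 0.025), and 1 in the lateral labelled knockout, Was (0.41 ± 0.089; 0.015). Of 13 other T cell genes only Thy1 passed, which stromal cells also express. It read 6.11, 5.74 and 5.79 against 6.62, 6.42 and 6.46 in ventral and 8.53, 8.69 and 8.48 against 8.19, 7.89 and 7.84 in lateral arrays, higher in the first (0.62 ± 0.12; 0.0058) and lower in the second (-0.60 ± 0.12; 0.010). Of 10 other B cell and plasma cell genes 1 passed, Cr2, a complement receptor, with 6.37, 6.29 and 6.41 in wild-type and 5.35, 5.52 and 5.21 in labelled knockout lateral arrays. Of 20 other myeloid genes only Trem2, a receptor that signals through DAP12, passed, in the lateral lobe and upward (0.34 ± 0.083; limma adjusted p = 0.031). Among 7 dendritic cell and 8 granulocyte genes 0 passed in either lobe.

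Some chemokines and growth factors that draw or sustain leukocytes passed in each lobe. Of 29 measured, 5 rose and 3 fell in the ventral knockout, and 1 rose and 2 fell in the lateral labelled knockout. In the ventral lobe 5.88% of all genes passed as higher and 3.20% as lower, and in the lateral lobe 1.62% and 3.42%. Kitl, the ligand of Kit, read 8.17, 8.52 and 8.38 in wild-type and 9.0, 9.13 and 8.94 in knockout ventral arrays, without overlap (0.67 ± 0.096; limma adjusted p = 0.00074). Cxcl10 and Ccl3 fell in the ventral lobe by 0.41 ± 0.090 and 0.82 ± 0.19 log2 units (limma adjusted p = 0.012 and 0.014). Cxcl12, a stromal chemokine, read 7.11, 6.76 and 6.81 against 7.24, 7.30 and 7.61 in ventral and 8.60, 8.56 and 8.39 against 7.91, 7.54 and 7.66 in lateral arrays, higher in the ventral (0.49 ± 0.13) and lower in the lateral comparison (-0.82 ± 0.13). Ccl11, the eosinophil attractant eotaxin, fell by 1.06 ± 0.14 log2 units in the lateral lobe (limma adjusted p = 0.00038).

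Within groups, members of 1 lineage did not all vary together. Taking each array minus its group mean, the median pairwise Pearson correlation over the 12 arrays was 0.49 for the 4 class II genes, 0.27 for the 6 T cell genes, 0.21 for the 5 genes of all leukocytes and 0.033 for the 16 myeloid genes. These are descriptions over arrays that share group means. In wild-type ventral replicate 1, 24 of the 40 members read highest of their group, and in wild-type ventral replicate 2, 24 read lowest. The median member deviated by 0.080 and -0.081 in these arrays, where the median of all genes deviated by -0.0042 and 0.0066. In knockout ventral arrays 16 members read highest in replicate 1 and 20 lowest in replicate 2, with median deviations of 0.071 and -0.094.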

How the data were processed

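The authors deposited log2 signals from RMA in Affymetrix Expression Console, per the submitters' processing notes, and the sources used here give no versions. RMA corrects background, brings arrays of a run to 1 distribution and summarises the probes of a set. Of 45101 probe sets, 34958 had 1 symbol, 932 several and 9211 none in the platform annotation. Symbols were updated by Entrez identifier in a RefSeq table (GRCm38.p6), which matched 34754, and the brightest probe set per gene was kept, giving 18194 genes.

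A model of 4 group means over the 12 arrays was fitted in R 4.3.3 by lmFit, contrasts and eBayes of limma 3.58.1, with 8 residual and 5.68 prior degrees of freedom. Genes passed when their p, adjusted over all genes by Benjamini-Hochberg, was under 0.05. Errors are moderated standard errors. The mark for low signal was chosen after the values were seen.

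The members and all lists were chosen with earlier results of these data known. Array values were given for members that passed between genotypes, for the member of highest mean of each lineage and for that of largest difference in each lobe, and up to 3 genes of smallest p were named from each other list. Tested on simulated data for the ventral comparison over 18194 genes, the fit called 38 of 67 genes changed by 0.5 log2 units, 67 of 67 changed by 1 and 66 of 66 changed by 2, with 7 false calls. Only these genes were changed, with noise drawn independently for each gene, whereas 1652 genes passed in the data. The simulation thus does not give the error of the real comparison.

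Alternatives were quantile normalization or centring over all arrays, the arrays compared alone, the replicate number as a block, removal of the dimmest 40% of genes, other handling of probe sets, another variance model, a threshold of 0.10 and each array left out. Replicate numbers showed no clear pairing of the arrays. Within a lobe, the deviations of same-numbered arrays of the 2 genotypes correlated at -0.0071 to 0.116 over 6 pairs. Within a genotype, those of same-numbered arrays of the 2 lobes correlated at -0.061 to 0.072. Arrays give no read depth, and their number limits the precision.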

Additional observations from a re-analysis of the deposited data

Results flagged for a closer look

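The genotype difference changed between lobes, by the test of lateral minus ventral difference in limma, for 7 leukocyte marker genes and 10 companion genes. Over all genes 2.80% passed upward and 6.51% downward. Lateral minus ventral, the members gave 0.52 for Cd8a, -0.71 for Tyrobp, -0.78 for Mrc1, -0.58 for Cd163, -0.71 for C1qb, -0.53 for C1qc and -0.72 for Ccl5. The companion genes of leukocytes gave 0.50 for Was, -1.22 for Thy1, -1.07 for Cr2, -0.57 for Ctss and 0.45 for Trem2. The chemokines and growth factors gave 1.14 for Ccl3, -1.43 for Ccl11, -1.31 for Cxcl12, -1.31 for Cxcl15 and -0.52 for Kitl. With 3 arrays per group, no array was tested for standing apart within its group.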

How the results depend on the processing

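No genotype difference of a member that had passed, in either lobe, between lobes or averaged, changed sign under an alternative. Of the 14 members with several probe sets, all probe sets of a gene had the same sign in 7 in the ventral comparison. In the lateral comparison they did in 6 and between wild-type lobes in 9. The count of members passing in the ventral lobe was 3, all higher, and 5 with the mean of a gene's probe sets and 5 at a threshold of 0.10, each time 3 higher and 2 lower. With 1 array left out it ranged from 0 to 3. In the lateral lobe it was 7 and ranged from 4 to 8. For the lobe difference it was 7, with 4 after quantile normalization over all arrays, 4 in a fit over all probe sets and 3 to 7 with 1 array left out. For the average over lobes it was 7, with 4 after quantile normalization, 4 over all probe sets and 4 to 7 with 1 array left out. Between wild-type lobes it was 38, with 20 of 21 tested once the dimmest 40% of genes were removed and 35 to 38 with 1 array left out. An alternative chosen after seeing the data left out both wild-type ventral replicate 3 and labelled knockout lateral replicate 3, and gave 4 in the lateral lobe, 3 for the lobe difference and 3 for the average. Fcer1g, lower between wild-type lobes as deposited, gave 0.21 after quantile normalization and 0.089 after centring, and Cpa3 gave 0.043 after centring. The cause of these changes was not tested, and some alternatives also hold fewer genes or arrays.

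Replicate number as a fixed block gave 3, 8, 7, 5 and 38 members in the order above, and genotype and number as a random block 3, 7, 7, 7 and 38. Among arrays of the other genotype in their lobe, 6 of the 12 arrays correlated best with the array of their own number. The numbers are not taken to pair samples.

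Counts over all genes moved by more than 1.5 times in some settings: in the ventral lobe from 1652 to 965 with ventral arrays alone, 2704 at a threshold of 0.10 and 860 without the 2 arrays above, and in the lateral lobe from 916 to 1509 and 583 in the latter settings. For the lobe difference 1693 became 2726 and 973, and for the average 1024 became 1558 and 635. With 1 array left out the lowest counts were 941, 499 and 1103 for the ventral lobe, the lateral lobe and the lobe difference.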
